A study of Homo sapiens with 4 samples.

Results

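HLA class I antigen presentation was described through 9 genes chosen by name, which are HLA-B, HLA-C, HLA-E, B2M, TAP1, TAP2, TAPBP, PSMB8 and PSMB9. All 9 were found among the 32955 genes of the deposited RNA-seq table, and all 9 were among the 13871 genes with a mean of at least 1 RPKM (reads scaled to the length of the gene and to all reads counted on genes in the library). The cells were labelled MDA-MB-231, an established line from a human triple-negative breast cancer, and were grown in DMEM with fetal bovine serum. Transfection was with mimic NC, the negative control oligonucleotide, for 2 libraries and with miR-217 mimic, an oligonucleotide made to stand in for the microRNA miR-217, for the other 2. Every library thus came from transfected cells of a single line, and untransfected cells were not among the samples. Within a group the libraries are numbered 1 and 2, and the labels state neither what the number marks nor whether the cultures were separate, so that p-values measure the spread between these 4 libraries only. The same 4 libraries enter both comparisons below, miR-217 mimic against mimic NC and number 2 against number 1.

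Class I molecules show short peptides from inside the cell to CD8 T cells and natural killer cells. Proteins are cut by the proteasome, whose catalytic subunits can be exchanged for the inducible subunits encoded by PSMB8 and PSMB9. The peptides are pumped into the endoplasmic reticulum by the transporter of TAP1 and TAP2, and tapasin, encoded by TAPBP, holds the empty class I molecule at this transporter. There they are loaded onto a heavy chain, encoded by HLA-B, HLA-C or the less variable HLA-E, paired with the light chain β2-microglobulin, encoded by B2M. Interferons, NF-κB and the activator NLRC5 are known to raise many of these genes together, and tumour cells can escape T cells by losing them.

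Of the 9 genes, 8 lie in the major histocompatibility complex on chromosome 6, and B2M lies on chromosome 15. On GRCh38, HLA-C spans 31268749 to 31272130 and HLA-B spans 31353872 to 31357188 on the minus strand of chromosome 6, while HLA-E spans 30489467 to 30494205 on the plus strand. TAP2 (32821833 to 32838780), PSMB8 (32840717 to 32844703), PSMB9 (32844136 to 32859585) and TAP1 (32845209 to 32853978) are neighbours. B2M spans 44711477 to 44718877 on the plus strand of chromosome 15. The start sites of TAP1 and PSMB9 in RefSeq face away from each other at a distance of 488 bases. The promoters of the genes for the light chain and the heavy chains are shown because their transcripts are set against each other below. The stretches come from RefSeq (GRCh38.p14) and read 5′ to 3′ in the direction of the gene. Capitals mark matches, on either strand, to the interferon regulatory factor (IRF) motif AANNGAAA, the NF-κB motif (κB), the core TGACG of the cAMP response element and the CCAAT box, and neighbouring matches can overlap.
HLA-B, minus strand, chr6:31357226-31357361: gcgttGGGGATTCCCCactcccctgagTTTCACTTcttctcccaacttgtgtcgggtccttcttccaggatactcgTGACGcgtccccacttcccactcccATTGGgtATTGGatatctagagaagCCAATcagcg
HLA-C, minus strand, chr6:31272139-31272289: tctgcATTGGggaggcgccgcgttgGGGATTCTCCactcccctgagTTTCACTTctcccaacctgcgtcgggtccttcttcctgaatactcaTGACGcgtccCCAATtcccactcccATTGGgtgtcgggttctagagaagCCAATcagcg
B2M, plus strand, chr15:44711370-44711477: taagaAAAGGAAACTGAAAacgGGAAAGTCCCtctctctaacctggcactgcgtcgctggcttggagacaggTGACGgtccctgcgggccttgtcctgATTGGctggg

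All 4 motifs were found in the 250 bases before the start of HLA-B, HLA-C and B2M. Over RefSeq, 13 of 35116 such windows (0.037%) held all 4, the windows of these genes included. This share is a description and not a test. Singly, IRF matches were found in 20.3% of windows, κB matches in 5.21%, TGACG in 21.2% and CCAAT in 32%. The windows of HLA-B and HLA-C were 89% identical in an alignment. IRF matches were also found before TAP1, TAP2 and TAPBP, and are shown with 5 or fewer bases on either side.
TAP1, minus strand, chr6:32853820-32853843: gccgcTTTCGATTTCGCTTtcccc
TAP2, minus strand, chr6:32838783-32838806: tggggAAGCGAAAGCGAAAgctgc
TAPBP, minus strand, chr6:33314079-33314101: gaggaAAGTGAAAGTGAAAggag
The windows of PSMB8 and PSMB9 did not hold AANNGAAA. The stretch shown for TAP1 begins 139 bases before the start of TAP1. It lies between the start sites of TAP1 and PSMB9, outside the 250 bases searched before PSMB9. Another RefSeq window of TAP1 held none of the 4 motifs. RefSeq windows were found for 8 of the 9 genes, and HLA-E had none. A match describes letters only, and binding was not measured.

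The reads recovered from the RPKM values summed to between 32635814 (miR-217 mimic replicate 2) and 57933183 (mimic NC replicate 1) per library. The first principal component held 71.3% of the variance and separated the number 2 libraries from the number 1 libraries. Of the cell line markers, VIM was at 27.9 to 36.9 RPKM and KRT8 at 154 to 421 RPKM, with KRT8 and KRT18 lower in both number 2 libraries, while ESR1, GATA3 and CDH1 were under 0.5 RPKM. Vimentin is generally described as abundant in this mesenchymal-like line, and CDKN2A, generally described as deleted in it, was at 10.5 to 13.2 RPKM (chosen after its values were seen). The values of VIM and CDKN2A go against these descriptions of the labelled line. Those of ESR1, GATA3 and CDH1, listed as low in it, do not. From the same list, ERBB2 was at 2.27 to 3.23 RPKM and EPCAM at 3.9 to 7.41 RPKM. Of the other markers of the line, CD44 was at 13.5 to 26 RPKM and EGFR at 19.5 to 22.7 RPKM. MSN was at 93.5 to 157 RPKM and AXL at 6.23 to 8.71 RPKM. The identity of the cells was not tested. The summed level of 10 leukocyte markers was 12.9 and 15.4 RPKM with mimic NC and 17.5 and 19.5 RPKM with miR-217 mimic, mostly CD68 at 10.4 to 13.6 RPKM. Of these 10 markers, 8 had a mean under 1 RPKM and 7 were highest in miR-217 mimic replicate 2, as were 4 of the 7 markers of the line. HBB, a marker of red cells kept in this list, was at 0 in both number 2 libraries and at 0.0293 and 0.0318 RPKM in the others. The 5 fibroblast and endothelial markers all had a mean under 1 RPKM and summed to 0.648 to 1.62 RPKM. In miR-217 mimic replicate 2, PTPRC was at 1.25 RPKM and LYZ at 3.44 RPKM, compared with at most 0.504 and 1.36 RPKM in the others.

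The genes formed a ladder of levels from the heavy chains down to PSMB9. On the scale of RPKM, HLA-C had the highest level, with 134 and 150 RPKM in mimic NC replicates 1 and 2 and 129 and 140 RPKM in miR-217 mimic replicates 1 and 2. HLA-B followed with 98.9 and 110 RPKM with mimic NC and 88.6 and 95.7 RPKM with miR-217 mimic. B2M was at 78.6 and 66 RPKM with mimic NC and 73.4 and 61.7 RPKM with miR-217 mimic. In both groups the heavy chains were higher in the library numbered 2, and B2M was lower there.

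PSMB8, an inducible proteasome subunit, lay above the heavy chain HLA-E, which presents peptides from the leaders of other class I chains to natural killer cells. PSMB8 was at 42.6 and 44.6 RPKM with mimic NC and 41.2 and 43.9 RPKM with miR-217 mimic, the narrowest range of the 9 genes, with 1.08-fold between its highest and lowest library. HLA-E was at 29 and 32 RPKM with mimic NC and 27 and 30.8 RPKM with miR-217 mimic. The transport and loading genes lay lower. TAP1 was at 9.4 and 9.13 RPKM with mimic NC and 9.58 and 10.4 RPKM with miR-217 mimic. TAP2 was at 6.91 and 7.13 RPKM with mimic NC and 7.43 and 8.3 RPKM with miR-217 mimic. For both transporter subunits the 2 miR-217 mimic libraries lay above the 2 mimic NC libraries. TAPBP was at 7.27 and 6.68 RPKM with mimic NC and 7.31 and 6.5 RPKM with miR-217 mimic, with both number 2 libraries below both number 1 libraries. PSMB9 was lowest and most variable, with 4.22 and 3.28 RPKM with mimic NC and 4.27 and 2.14 RPKM with miR-217 mimic, a 1.99-fold range.

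The RPKM ranges of neighbours in this order did not overlap over the 4 libraries, with the exception of TAP2 and TAPBP. Among the genes tested, HLA-C stood at the 97.5th percentile of mean RPKM and PSMB9 at the 38.4th. Together the 9 genes took between 0.133% and 0.143% of the reads of a library. The reads behind the values ranged from 215 for PSMB9 in miR-217 mimic replicate 2 to 27710 for B2M in mimic NC replicate 1. The first stood for 2.14 RPKM, with an exact 95% Poisson interval of 1.87 to 2.45 (counting error only). The second stood for 78.6 RPKM, with an interval of 77.6 to 79.5. Both intervals take every read as independent. Many of the small recovered counts, though not all, were even. Whether both reads of a pair were counted was not tested. If they were, the intervals are too narrow.

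**Figure D1:**
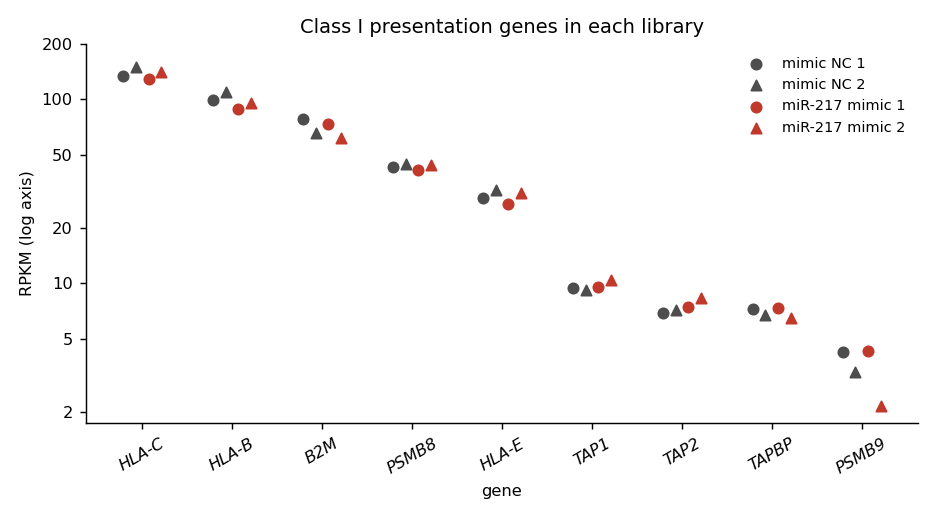
RPKM on a log axis of the 9 genes in each library, ordered by mean level. Dark grey marks are mimic NC, red marks are miR-217 mimic, circles are replicate number 1 and triangles number 2. HLA-C is highest at 129 to 150 RPKM, and PSMB9 is lowest, with miR-217 mimic replicate 2 at 2.14 RPKM.

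The order of the levels depends on the length by which reads are divided. The table uses the summed length of all annotated exons, which for B2M is 6089 bases, 3.57 times the 1705 bases of its principal transcript in GENCODE. Divided by the length of the principal transcript, an alternative chosen after seeing the data, B2M had the highest mean level of the 9, 250 RPKM, compared with 226 RPKM for HLA-C and 192 RPKM for HLA-B. PSMB9 stayed lowest at 13.7 RPKM, while TAP2 and TAPBP, at 19 and 18.6 RPKM, lay above TAP1 at 14.9 RPKM. The ratio of a gene's RPKM between libraries does not depend on this length.

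Between miR-217 mimic and mimic NC, the class I heavy and light chain genes were slightly lower and the transporter genes slightly higher, but 0 of the 9 genes passed the test. The mean RPKM of HLA-B was 105 ± 8.19 (SD, n = 2) with mimic NC. With miR-217 mimic it was 92.2 ± 4.97 (SD, n = 2), which is a change of -12%. Its difference in log2(RPKM + 1) was -0.18 (standard error 0.14, 95% interval -0.54 to 0.17, adjusted p = 1.00, limma, Benjamini-Hochberg over all genes tested). Among the 9 genes, HLA-B alone had its 2 miR-217 mimic values below its 2 mimic NC values. The log2 differences of the other chains were -0.08 for HLA-C, -0.07 for HLA-E and -0.10 for B2M, and their libraries overlapped between the groups.

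The values of TAP2 did not overlap between the groups but its difference did not pass the test. Mimic NC libraries had a mean of 7.02 ± 0.152 RPKM (SD, n = 2), and miR-217 mimic libraries had 7.86 ± 0.613 RPKM (SD, n = 2). Its log2 difference was 0.14 (standard error 0.12, 95% interval -0.17 to 0.45, limma adjusted p = 1.00). TAP1 had a log2 difference of 0.10 (95% interval -0.21 to 0.40). TAPBP and PSMB8 had differences of -0.01 and -0.03, with intervals of -0.34 to 0.31 and -0.35 to 0.28. PSMB9 had the largest log2 difference in size, -0.22, and the widest interval, -0.95 to 0.52. This value came from a single pair: within number 1 the difference in PSMB9 was 0.01, and within number 2 it was -0.45. Without miR-217 mimic replicate 2 the PSMB9 difference was 0.16. That library had the fewest reads, 32635814, and the highest summed level of leukocyte markers. The part of the depth and of these markers in this value was not tested.

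Across the list, 3 of 9 genes had libraries that did not overlap between the groups, compared with 23.2% of all genes tested. The 2 that were higher (TAP1 and TAP2) stand against 9.72% of all genes, and the 1 that was lower (HLA-B) against 13.5%. Limma gave 0 of the 9 an unadjusted p under 0.05, compared with 1.19% of all genes tested (0.483% higher and 0.707% lower), and 0 an adjusted p under 0.05, compared with 0% of them. Voom on the recovered reads gave 0 unadjusted and 0 adjusted, compared with 0.591% and 0% of all genes. Voom with a term for the replicate number gave 0 adjusted, compared with 0.00721% of all genes. It gave 1 of the 9 unadjusted, which was HLA-B, compared with 9.09% of all genes. The median log2 difference of the 9 genes was -0.07, compared with -0.02 for all genes tested, and 7 of the 9 were lower, compared with 55.6% of all genes. With 2 libraries per group, the smallest two-sided p of an exact permutation test is 0.333. The 95% intervals of B2M, HLA-B, HLA-C, HLA-E and both TAP genes reached at most 0.54 from 0 on the log2 scale. Changes within these intervals, which are not adjusted for the number of genes, were not excluded. The smallest detectable change was not computed. Leaving out 1 library turned the direction of 6 of the 9 small differences, PSMB9 as above and B2M (0.03 without mimic NC replicate 1 or without miR-217 mimic replicate 2). The others were HLA-C (0.00 without mimic NC replicate 2), HLA-E and PSMB8 (0.02 and 0.01 without miR-217 mimic replicate 1) and TAPBP (0.04 without mimic NC replicate 1 and 0.06 without miR-217 mimic replicate 2).

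**Figure D2:**
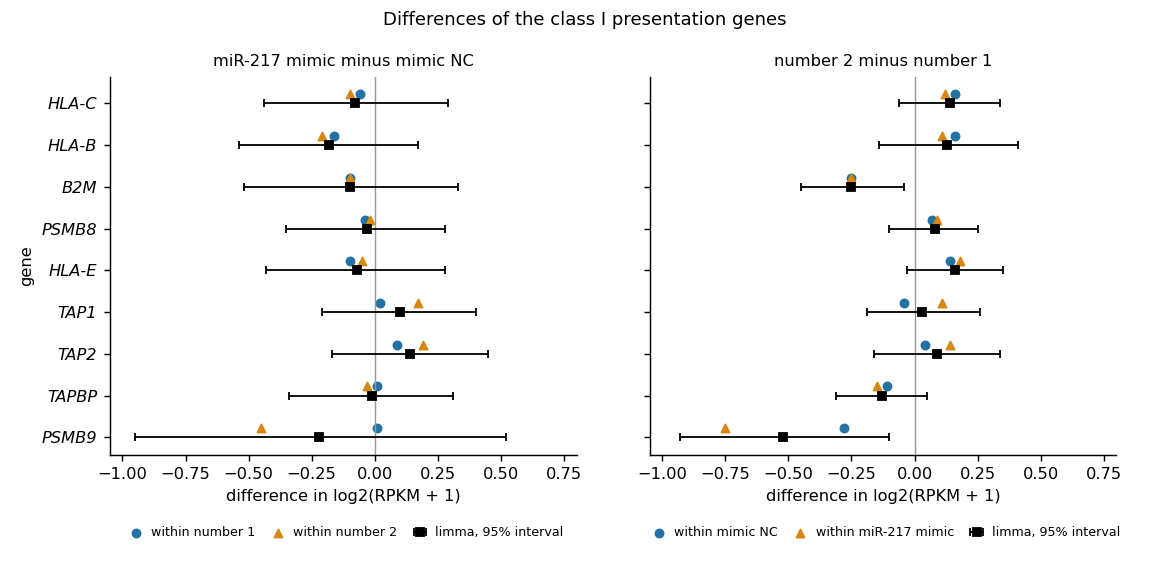
Differences in log2(RPKM + 1) of the 9 genes, on the left miR-217 mimic minus mimic NC and on the right number 2 minus number 1. Squares with bars are the limma estimates with 95% intervals, circles and triangles are single pairs of libraries (on the left within number 1 and number 2, on the right within mimic NC and miR-217 mimic). On the left every interval includes 0, and on the right those of B2M and PSMB9 lie below 0.

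The seed of miR-217 (bases 2 to 8, in capitals) is shown because the mimic carries it and targets are matched through it.
hsa-miR-217-5p: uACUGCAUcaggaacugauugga
Of the 9 genes, TAP2 was the only 1 whose longest 3'UTR in GENCODE holds a match to the seed of at least 7 bases. It has the match to bases 2 to 8 followed by an A, present in 3.44% of 19462 genes with a 3'UTR, and a second match to bases 2 to 7 followed by an A, present in 12.2% of them. The sites are shown with 10 bases on either side, the match in capitals.
TAP2, minus strand, chr6:32826651-32826658: gtacaggaagATGCAGTAgaccttaaga
TAP2, minus strand, chr6:32826388-32826394: gtcgcttaccTGCAGTAtctttcccac
They start at bases 2248 and 2512 of a 3'UTR of 3491 bases, which 2 of the 5 annotated TAP2 transcripts carry, and which transcript the cells used was not measured. The log2 difference of TAP2, 0.14, did not pass the test, and whether miR-217 acts through these sites was not tested. Matches to bases 2 to 7, longer ones included, were found in 3 of the 9 genes, compared with 45.7% of genes with a 3'UTR. TAPBP held 4, TAP2 held 3 and HLA-E held 1. HLA-B, HLA-C, B2M, TAP1, PSMB8 and PSMB9 held 0 in their longest 3'UTR.

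Between the libraries numbered 2 and those numbered 1, 0 of the 9 genes passed the adjusted test. The light chain B2M and the subunit PSMB9 were lower in number 2, at an unadjusted p under 0.05 but not after adjustment. B2M was at 76 ± 3.65 RPKM (SD, n = 2) in number 1 and 63.8 ± 3.05 RPKM (SD, n = 2) in number 2, a change of -16%. Its log2 difference was -0.25 (standard error 0.08, 95% interval -0.45 to -0.04, limma adjusted p = 0.117), and it was -0.25 within mimic NC and -0.25 within miR-217 mimic. PSMB9 was at 4.25 ± 0.0359 RPKM (SD, n = 2) in number 1 and 2.71 ± 0.806 RPKM (SD, n = 2) in number 2. Its log2 difference was -0.52 (standard error 0.16, 95% interval -0.93 to -0.10, limma adjusted p = 0.111), and it was -0.28 within mimic NC and -0.75 within miR-217 mimic. The PSMB9 difference was -0.29 without miR-217 mimic replicate 2 and -0.74 without mimic NC replicate 2. Adjusted limma p-values under 0.05 were found for B2M (0.0404) and PSMB9 (0.00769) without mimic NC replicate 2, a fit in which 28.3% of all genes tested had one. They were also found with voom on the recovered reads and a term for the group (0.0282 and 0.024), where 23.6% of all genes tested had one. Over all alternatives the adjusted p from limma ranged from 0.0282 to 0.584 for B2M and from 0.00769 to 0.399 for PSMB9.

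The heavy chains had differences above 0 that did not pass the test. HLA-E had a log2 difference of 0.16 (95% interval -0.03 to 0.35, limma adjusted p = 0.219), HLA-C of 0.14 (-0.06 to 0.34) and HLA-B of 0.13 (-0.14 to 0.41). For HLA-C and HLA-E both number 2 libraries lay above both number 1 libraries, and for HLA-B they overlapped. PSMB8 also did not overlap, with a difference of 0.08, and TAPBP did not overlap in the lower direction, with -0.13. TAP1 and TAP2 had differences of 0.03 and 0.09, which became -0.05 and -0.01 without miR-217 mimic replicate 2. In 8 of the 9 genes the difference had the same direction within mimic NC and within miR-217 mimic, TAP1 being the exception.

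These counts were near those of all genes. The libraries of 6 of the 9 genes did not overlap, compared with 62.4% of all genes tested. The 3 that were higher stand against 26.9% of all genes and the 3 that were lower against 35.5%. An unadjusted p under 0.05 was found for 2 of the 9, compared with 30.2%, both of them lower, compared with 17.4% lower and 12.8% higher over all genes. An adjusted p under 0.05 was found for 0 of the 9, compared with 7.04%. With voom and a term for the group it was 2 of the 9, compared with 23.6%. A share near that of all genes is not a result about the 9 genes. The 9 genes had a median of 0.08, against -0.04 over all genes tested. The markers KRT8 and KRT18 and the depth of the libraries moved with the number as well, and their part in these differences was not tested. In bulk RNA, fewer cells with a transcript and less of it per cell cannot be told apart.

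Ratios between partner genes were taken within each library. The HLA-B to B2M ratio of RPKM was 1.26 in mimic NC replicate 1 and 1.21 in miR-217 mimic replicate 1, and 1.67 and 1.55 in the libraries numbered 2. It was thus higher in number 2 by 33% within mimic NC and by 28.5% within miR-217 mimic. The HLA-C to B2M ratio was 1.71 and 1.76 in number 1 and 2.27 and 2.27 in number 2 (mimic NC first), and the HLA-E to B2M ratio was 0.369 and 0.368 in number 1 and 0.485 and 0.5 in number 2. All 3 heavy chains were therefore higher relative to the light chain in both number 2 libraries, by 28.5% to 35.8%. The HLA-B to HLA-C ratio, which was not among the ratios planned, was instead lower in both miR-217 mimic libraries. It was 0.737 and 0.737 in the mimic NC libraries and 0.687 and 0.682 in the miR-217 mimic libraries, lower by 6.75% within number 1 and by 7.43% within number 2. The share of gene pairs whose ratio did not overlap between the groups was not computed. For levels of single genes tested, which are another measure, it was 23.2%. These ratios were looked at after the levels were known and are given as a description, with no test. Their sides of 1 depend on the length used: with the principal transcript length HLA-B to B2M lay between 0.658 and 0.913 and HLA-C to B2M between 0.781 and 1.04, while the percent differences between libraries do not change.

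Each inducible subunit takes the place of a standard one, PSMB8 that of PSMB5, PSMB9 that of PSMB6 and PSMB10 that of PSMB7. The PSMB8 to PSMB5 ratio was 1.28 and 1.33 in the number 1 libraries of mimic NC and miR-217 mimic and 1.68 and 1.63 in the number 2 libraries. The PSMB9 to PSMB6 ratio was 0.215 and 0.215 in number 1, 0.18 in mimic NC replicate 2 and 0.111 in miR-217 mimic replicate 2. The PSMB10 to PSMB7 ratio stayed between 0.0469 and 0.0531. PSMB8 was thus above its partner and PSMB9 and PSMB10 were below theirs in all 4 libraries. With the principal transcript length these ratios lay between 1.68 and 2.2 for PSMB8, 0.256 and 0.497 for PSMB9 and 0.0391 and 0.0443 for PSMB10, on the same side of 1. Between the numbers, the PSMB8 to PSMB5 ratio was higher in number 2 by 31.4% within mimic NC and by 23% within miR-217 mimic, while PSMB5 alone had a log2 difference of -0.26 (limma adjusted p = 0.0928). For the transporter, the TAP1 to TAP2 ratio lay between 1.25 and 1.36 in all libraries, and with the principal transcript length it turned to between 0.756 and 0.822.

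**Figure D3:**
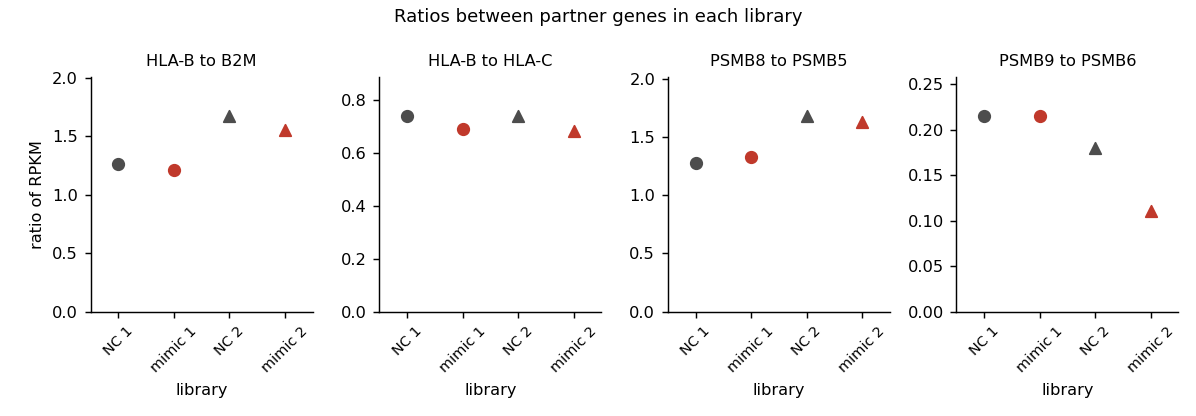
Ratios of RPKM between partner genes in each library, on linear axes from 0, with dark grey for mimic NC, red for miR-217 mimic, circles for number 1 and triangles for number 2. HLA-B to B2M and PSMB8 to PSMB5 are higher in number 2, HLA-B to HLA-C is lower with miR-217 mimic (0.687 and 0.682 compared with 0.737), and PSMB9 to PSMB6 is lowest in miR-217 mimic replicate 2 (0.111).

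The wider pathway was described with lists of other genes. Between miR-217 mimic and mimic NC, 0 genes of these lists had an unadjusted limma p under 0.05, compared with 1.19% of all genes tested. Of 10 genes for peptide loading and trimming, 9 were tested with a median log2 difference of 0.05, from -0.08 for NRDC to 0.08 for PDIA3, the disulfide isomerase of the loading complex. Of 20 proteasome genes, all were tested with a median of -0.03, from -0.14 for PSMA6 to 0.14 for PSMA3. Among 26 regulators, 24 were tested with a median of -0.02, from -0.26 for RFXAP, a subunit of the RFX complex that binds class I and class II promoters, to 0.17 for STAT2. RFXAP was at 3.68 and 3.61 RPKM with mimic NC and 3.07 and 2.7 RPKM with miR-217 mimic (limma adjusted p = 1.00). Of 24 interferon-induced genes outside class I, 19 were tested with a median of 0.00, from -0.56 for IFITM1 to 0.13 for IFI44. IFITM1, a membrane protein that restricts viral entry, was at 13 and 11.2 RPKM with mimic NC and at 12.4 and 4.88 RPKM with miR-217 mimic, lowest in the same library as PSMB9. In the interferon-induced list 0 genes had non-overlapping groups, compared with 23.2% of all genes tested.

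Between the numbers, the lists contained genes that passed the adjusted test, compared with 3.34% of all genes higher and 3.71% lower. Calreticulin and calnexin, the lectin chaperones that help the heavy chain fold, moved in opposite directions. CALR fell by 0.77 on the log2 scale (limma adjusted p = 0.0278), with 882 and 858 RPKM in number 1 and 481 and 539 RPKM in number 2. CANX rose by 0.48 (limma adjusted p = 0.0443), with 398 and 394 RPKM in number 1 and 532 and 577 RPKM in number 2. Of the 20 proteasome genes, 1 passed, PSMB3, which fell by 0.55 (limma adjusted p = 0.0266), and 15 of the 20 had a difference below 0, compared with 55.8% of all genes. Of 24 regulators tested, 0 passed the adjusted limma test and 3 had an unadjusted p under 0.05, compared with 30.2% of all genes. Among them were NLRC5, the class I activator, at -0.22 and EZH2, a histone methyltransferase, at 0.24. Of the 19 interferon-induced genes tested, 4 rose (IFIT2, IFIT3, OASL and IFIH1) and 2 fell (GBP2 and TRIM21) in the adjusted test. IFIT2 had the highest difference, 0.93, and GBP2, a guanylate-binding protein, the lowest, -0.91. The heavy chains, at 0.13 to 0.16, and PSMB9, at -0.52, lay inside this range.

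**Figure D4:**
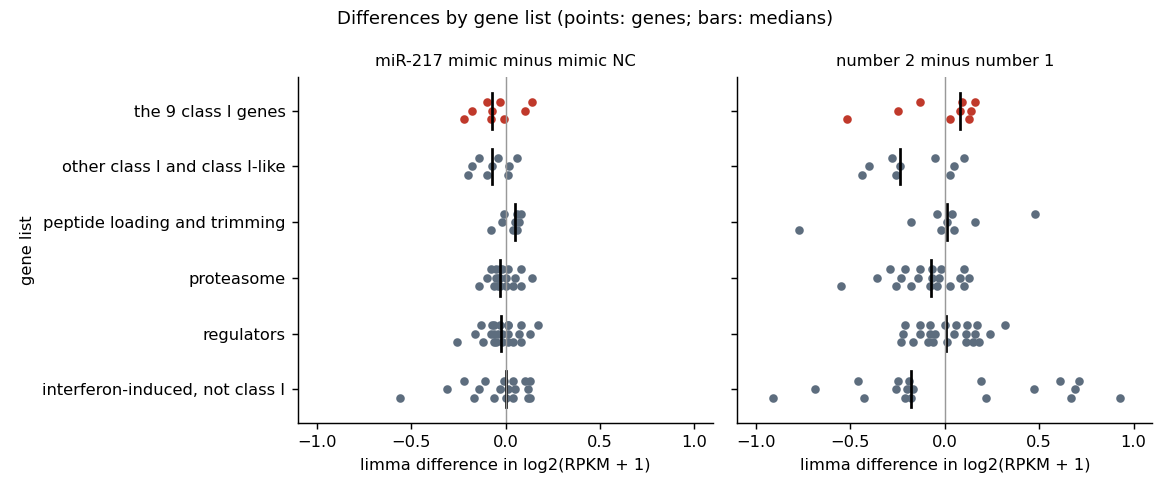
Limma differences in log2(RPKM + 1) by gene list, on the left miR-217 mimic minus mimic NC and on the right number 2 minus number 1, with 1 point per tested gene and a bar at the median. On the left the 9 class I genes (red) have a median of -0.07 and span -0.22 to 0.14. On the right the interferon-induced genes span -0.91 to 0.93.

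Class II genes, which antigen-presenting cells carry, were near the floor. All 11 had a mean under 1 RPKM and were not tested, and their summed level was 2.86 and 2.92 RPKM with mimic NC and 3.44 and 6.53 RPKM with miR-217 mimic. Of the 11 genes, 8 were highest in miR-217 mimic replicate 2, the library with the highest leukocyte markers, and CD74 was at 1.29 RPKM there and at 0.412 to 0.542 RPKM in the others. Of the 7 markers of the line, 4 were also highest in this library, and 3 were highest in mimic NC replicate 1. The share of all genes that were highest in it was not counted. The heavy chains HLA-B, HLA-C and HLA-E were highest in mimic NC replicate 2. TAP1 and TAP2 were highest in miR-217 mimic replicate 2, at 10.4 and 8.3 RPKM. Without that library the log2 differences of TAP1 and TAP2 between miR-217 mimic and mimic NC were 0.04 and 0.07, compared with 0.10 and 0.14 with all libraries. The part of the leukocyte markers in these values was not tested.

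Some reads of these genes cannot be assigned with certainty. Of the bases counted for HLA-B, 17.99% are shared with a gene on the opposite strand, XXbac-BPG248L24.12, which was at 133 to 178 RPKM, 1.45 to 1.61 times the RPKM of HLA-B. This gene was at 151 and 178 RPKM with mimic NC and 133 and 138 RPKM with miR-217 mimic. Its part in the HLA-B values was not tested. The library kit was stranded, but whether reads were counted by strand is not given in the sources used here, and so reads of the pair cannot be told apart. For TAP2, 32.3% of bases are shared with XXbac-BPG246D15.9 on the same strand, which was at 13.2 to 15.6 RPKM. PSMB8-AS1 shares 21.19% of PSMB8, 9.96% of TAP1 and 5.66% of PSMB9. Among class I genes, identical stretches of 50 bases in GENCODE transcripts were few, with 2.72% of those of HLA-B, 5.38% of HLA-C and 4.34% of HLA-E found in another gene. These stretches are of the reference, and the alleles of the cell line were not analysed here.

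The mean centred log2 profile of the 9 genes over the 4 libraries was nearly flat, from -0.047 to 0.032, and the single genes lay at a Euclidean distance of 0.106 (TAPBP) to 0.557 (PSMB9) from it, compared with a median of 0.243 for all genes tested. The genes outside the list closest to this profile over 4 libraries were KCNN4, TMEM18 and FBXL16, at distances of 0.00512 to 0.0105.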

How the data were processed

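TRIzol was used for RNA and a stranded kit for the mRNA libraries, per the labels. The authors deposited RPKM values per gene for 4 libraries, scaled by the reads counted on all listed genes and by summed exon length. The submitters' processing notes name Trimmomatic 0.36, featureCounts, Subread 1.5.1, edgeR 3.12.1 and hg38. The annotation and the strand setting are not given in the sources used here. Whole reads were recovered for 100% of nonzero values (tolerance 0.01 reads), between 32635814 and 57933183 per library.

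Values were tested as log2(RPKM + 1) with limma 3.58.1 in R 4.3.3 (trend of the variance on the mean, two-sided) for the 13871 genes whose mean RPKM was 1 or more. Benjamini-Hochberg adjustment was made over all of them and the threshold was 0.05. The pseudocount understates changes of low genes. The scripts were first tested on simulated data.

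All 9 members were named. Of the other lists, the lowest and highest gene of each and the standard partners of the proteasome subunits were named, along with genes said to be chosen after their values were seen and, where 5 or fewer passed, those genes. Some genes under this rule are not reported here. The members and lists were chosen with earlier results of these data known. Each fit was repeated without a filter, with a mean of 5 RPKM or more, with a pseudocount of 0.1 and after median centring. It was also repeated with voom on recovered reads, with a replicate block and without each library. On the linear scale only the ratio of mean RPKM of each member was taken, with no test. Voom with a replicate block and the principal transcript length were chosen after seeing the data. Sequences were taken from RefSeq and GENCODE 29, and plots were made with matplotlib 3.10.9.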

Additional observations from a re-analysis of the deposited data

How the results depend on the processing

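Library medians of tested genes differed by less than 0.1 on the log2 scale. For miR-217 mimic against mimic NC, the count of members with an adjusted p under 0.05 was 0 under all 11 alternatives. With the replicate block, a term for the replicate number, 0 members had an unadjusted p under 0.05 and the genes at that threshold went from 165 to 1046. The labels do not say what the number marks, and with 2 pairs the correlation of same-numbered deviations (0.68) is a hint only. With voom and the replicate block, 1 gene had an adjusted p under 0.05, and 1 member had an unadjusted one, compared with 9.09% of all genes. The median of the members was -0.05 at a mean RPKM of at least 5 and -0.05 with median centring, where TAPBP was 0.01. Leaving out 1 library, it went from -0.07 to 0.03, and 0 to 1 members had an unadjusted p under 0.05 (PSMB9 without miR-217 mimic replicate 1, compared with 6.24% of all genes). Single members went from -0.16 to 0.00 (HLA-C), -0.17 to 0.02 (HLA-E), -0.22 to 0.03 (B2M), -0.09 to 0.06 (TAPBP), -0.08 to 0.01 (PSMB8) and -0.59 to 0.16 (PSMB9).

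For number 2 against number 1, 977 genes had an adjusted p under 0.05. There were 3 without a filter, 2262 with voom, 3280 with voom and the replicate block, 1163 with the group as a term, and 9 to 3931 when 1 library was left out. Members with an adjusted p numbered 2 with voom and the replicate block and 0 to 2 when 1 library was left out. Members with an unadjusted p numbered 1 at a mean RPKM of at least 5, where PSMB9 was not tested, and 0 to 4 when 1 library was left out. Over all genes the shares were 35.6% at a mean RPKM of at least 5, 13.2% to 43.5% when 1 library was left out and 33.4% in the fit that gave 4 members. The median of the members then went from -0.01 to 0.07, TAP1 from -0.05 to 0.12 and TAP2 from -0.01 to 0.19. The causes were not tested. Leaving out a library makes the groups and the numbers unequal, and the library left alone in its group is assumed to vary like the others. Changes of PSMB9 are limited by 215 reads in the shallowest library.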

Other observations

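Class I-like genes outside the 9 also differed between the numbers before adjustment, without passing it. HLA-F, a heavy chain of narrow expression, was at 7 and 6.25 RPKM in number 1 and 5.26 and 4.35 RPKM in number 2 (mimic NC first), a log2 difference of -0.40 (limma adjusted p = 0.0925). MICA, a stress ligand of natural killer cells, was at 14.8 and 15.3 RPKM in number 1 and 12.2 and 12.2 RPKM in number 2, a difference of -0.28 (limma adjusted p = 0.0718). MICB, a related ligand, had a difference of -0.26. HFE, which regulates iron uptake, had the lowest difference of this list, -0.44 (limma adjusted p = 0.0884). Of the 9 genes of the list that were tested, 6 did not overlap in the lower direction and 2 in the higher direction, compared with 35.5% and 26.9% of all genes tested. Their median was -0.24, compared with -0.04 for all genes tested. Between miR-217 mimic and mimic NC their median was -0.07, from -0.20 for HFE to 0.06 for FCGRT.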
